A study of Mus musculus with 52 samples.

Results

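The change in 2 histone marks between day 4 and day 8 of reprogramming was followed in Mbd3flox/- cells. The members are 4 of the 52 samples of the study, the H3K4me3 and H3K27ac libraries of these cells on each day, chosen by genotype, day and antibody from their titles. Their peak lists held 97042 of the 928298 peaks in the 43 lists of the study. A day 4 peak that shared at least 1 bp with a day 8 peak of the same mark was called kept, a day 4 peak that shared none was called lost, and a day 8 peak that shared none with day 4 was called new.

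The Mbd3flox/- cells carry 1 floxed and 1 null Mbd3 allele and a transgene for Oct4, Sox2, Klf4 and Myc (OSKM) that is switched on by doxycycline. They also carry a transgenic GOF18 Oct4-GFP reporter, and the cells were not sorted on the reporter or otherwise before the experiments. Embryonic fibroblasts (MEF) of this genotype, grown in DMEM with serum, are the state before induction. Doxycycline was added on day 0 at 2 ug/ml, and cells of days 4 and 8 and the induced pluripotent stem (iPS) cells were grown in N2B27 medium with KSR, 2i and LIF. The same stages of an Mbd3+/+ clone, which carries the same kind of OSKM transgene but a GOF18 deltaPE-Oct4-GFP reporter, and embryonic stem (ES) cells of the genotype Mbd3-/-, which carry the same reporter as the Mbd3flox/- cells, served for comparison. The induced cells are a bulk population, so a peak carried by fewer cells and a peak that is weaker in each cell cannot be told apart. There was 1 library per genotype, stage and antibody, so no value below has a replicate check. Ranges in parentheses are 95% intervals, by Wilson's method for a share and Newcombe's for a difference, and cover counting error only. The read depth behind a list is unknown, and the labelled cell types were not checked against marker genes, because no gene annotation of the build of the files was used here.

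H3K4me3 marks promoters, where it is laid down beside initiating transcription, and H3K27ac marks active promoters and enhancers. H3K27me3 is the mark of Polycomb repression, and promoters that carry it together with H3K4me3 are known as bivalent. NuRD is a complex that joins histone deacetylases to a nucleosome remodeller. Mbd3 belongs to it, and Mi2B (Chd4) is the remodeller. Oct4 is one of the reprogramming factors and binds mainly at enhancers.

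Both lists became shorter from day 4 to day 8, and loss was far more frequent than gain. The H3K4me3 list held 20678 peaks on day 4 and 15628 on day 8. Of the day 4 peaks, 6865 were lost, which is 33.2% (32.6 to 33.8), and 1482 of the day 8 peaks were new, which is 9.48% (9.03 to 9.95). The H3K27ac list held 39499 peaks on day 4 and 21237 on day 8. Here 20681 day 4 peaks were lost, 52.4% (51.9 to 52.9), and 6234 day 8 peaks were new, 29.4% (28.7 to 30.0). These 4 shares are the background for the counts below. When both lists of a mark were cut to the same number of highest-scoring peaks, 17.3% of day 4 H3K4me3 peaks were lost and 13.6% of day 8 peaks were new, and for H3K27ac the order turned, with 35.0% lost and 41.9% new.

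Counted in base pairs, H3K27ac went the other way from its peak number. Day 4 H3K27ac peaks covered 71.8 Mb and day 8 peaks 91.0 Mb, with 40.2 Mb in common. H3K4me3 peaks covered 35.8 Mb on day 4 and 26.1 Mb on day 8, with 22.5 Mb in common. The H3K27ac peaks of day 8 were wider and joined several day 4 peaks: among the 11993 sites with 1 peak on each day the median width was 2067 bp on day 4 and 2838 bp on day 8, and 78.2% (77.4 to 78.9) were wider on day 8. Of the kept day 8 H3K27ac peaks, 18.8% (18.2 to 19.4) overlapped 2 or more day 4 peaks, with at most 11 under 1 peak. For H3K4me3 the widths moved the other way, from a median of 1937 to 1593 bp over 11953 such sites, with 27.3% (26.5 to 28.1) wider on day 8. Of the H3K27ac sequence of day 4, 31.6 Mb (44.0%) was not covered on day 8, while 50.8 Mb was covered on day 8 alone. The fall in the number of H3K27ac peaks was therefore not a fall in total covered sequence.

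Lost peaks were the weak and narrow ones of their list. The score of a peak is the one deposited by the authors, is not below 50 in any list, and was compared between peaks of 1 list. Lost H3K4me3 peaks had a median score of 109 (quartiles 69.0 and 208) and a median width of 920 bp, against 826 (439 and 1289) and 1931 bp for kept ones. Lost H3K27ac peaks had a median score of 109 (68.3 and 218) and a width of 1090 bp, against 416 (142 and 994) and 1927 bp. New peaks also stood low in the day 8 lists, with a median score of 69.0 against 173 for kept H3K4me3 peaks and of 105 against 191 for kept H3K27ac peaks. At the edge of the definition, 87 lost H3K4me3 peaks (1.27%) and 78 lost H3K27ac peaks (0.377%) lay within 100 bp of a day 8 peak. On the other side of it, 46 kept H3K4me3 peaks (0.333%) and 59 kept H3K27ac peaks (0.314%) shared at most 100 bp with day 8.

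Lost peaks of both marks were in the MEF list less often than kept ones. Of all day 4 peaks, 84.7% (84.2 to 85.2) for H3K4me3 and 54.9% (54.5 to 55.4) for H3K27ac overlapped the Mbd3flox/- MEF list. Of the lost H3K4me3 peaks, 59.2% (58.1 to 60.4) were already in the Mbd3flox/- MEF list, against 97.4% (97.1 to 97.6) of the kept ones, a difference of -38.2 percentage points (-39.4 to -37.0). Of the lost H3K27ac peaks, 42.8% (42.1 to 43.5) were MEF sites, against 68.3% (67.7 to 69.0) of the kept ones, a difference of -25.5 points (-26.5 to -24.6). The +/+ MEF list, which held 17023 H3K4me3 peaks against 21624 in the Mbd3flox/- MEF list, contained 21.9% of the lost and 86.1% of the kept H3K4me3 peaks. For H3K27ac the +/+ MEF list gave 44.2% and 69.5%. These shares moved with the processing: lost H3K27ac peaks in the Mbd3flox/- MEF list were 54.4% with the lists cut to equal numbers of highest-scoring peaks, 50.7% at a score of at least 100 and 23.3% with peaks at a fixed width. For H3K4me3 the lost minus kept difference narrowed to -14.1 points with equal numbers of peaks and to -20.8 at a score of at least 100.

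Lost peaks of both marks were also found in the pluripotent cells less often than kept ones. Of all day 4 peaks, 85.7% (85.2 to 86.1) for H3K4me3 and 39.6% (39.2 to 40.1) for H3K27ac were in the Mbd3flox/- iPS list. Of the lost H3K4me3 peaks, 58.4% (57.3 to 59.6) were again in the Mbd3flox/- iPS list and 75.6% (74.6 to 76.6) were in at least 1 of the Mbd3flox/- iPS, +/+ iPS and -/- ES lists. For kept day 4 H3K4me3 peaks these shares were 99.2% (99.0 to 99.3) and 99.8% (99.8 to 99.9). Of the lost H3K27ac peaks, 12.3% (11.8 to 12.7) were in the Mbd3flox/- iPS list and 35.2% (34.6 to 35.9) in any of the 3. For kept day 4 H3K27ac peaks they were 69.7% (69.0 to 70.3) and 90.9% (90.5 to 91.3). H3K27ac seen on day 4 in none of the MEF and iPS lists of both genotypes and the ES list made up 41.6% (41.0 to 42.3) of the lost peaks, 8608 in number, but 6.15% (5.82 to 6.51) of the kept ones. For H3K4me3 the corresponding shares were 18.4% (17.5 to 19.4) and 0.0869% (0.0497 to 0.152).

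**Figure D1:**
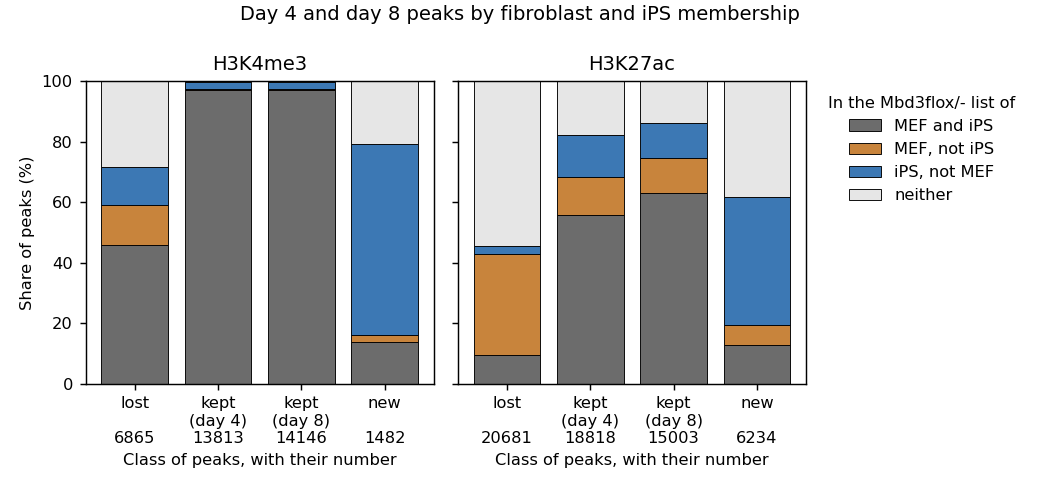
Stacked bars give the share of peaks, in percent, of each class (lost, kept as counted in the day 4 list, kept as counted in the day 8 list, new) that overlap the Mbd3flox/- MEF list and iPS list of the same mark. The largest part of lost H3K4me3 peaks, 46.0%, is in both lists, while the largest part of lost H3K27ac peaks, 54.5%, is in neither.

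For H3K27ac, the share lost differed more with presence in the iPS list than with presence in the fibroblast list. Among day 4 peaks that were also in the MEF list, 74.2% were lost where the iPS list had no peak and 15.9% where it had one, a difference of 58.3 points (57.2 to 59.4). Among day 4 peaks outside the MEF list, 77.2% and 17.4% were lost, a difference of 59.8 points (58.3 to 61.3). Within the peaks shared with iPS cells, absence from the MEF list went with 1.49 points more loss (0.0564 to 2.98), and within the peaks not in iPS cells with 2.98 points more (1.87 to 4.11). Neither difference kept its direction at every score. Of iPS-shared peaks in the lowest quintile of scores, 38.9% (35.0 to 43.0) of MEF peaks and 24.4% (21.3 to 27.9) of the others were lost. MEF peaks were lost more often in the next 3 quintiles as well. Among peaks not in iPS cells, 84.4% of MEF peaks and 83.5% of the others were lost in the lowest quintile. These shares were 81.7% and 80.9% in the second quintile and 76.5% and 74.1% in the third. In the fourth they were 62.3% and 67.9%, and in the highest 50.2% and 50.5%. The contrast by iPS presence held in each of the 5 quintiles. In the highest quintile of scores, 5.33% (4.81 to 5.91) of iPS-shared peaks and 50.4% of the others (710 of 1410) were lost, and in the lowest quintile 31.2% (28.6 to 33.8) and 83.8% (82.9 to 84.6). With peaks set to 250 bp on either side of their midpoint the contrast by iPS presence narrowed, to 77.2% against 38.4% among MEF peaks and 87.2% against 57.4% outside them. The contrast by MEF presence widened under that setting, with 57.4% of iPS-shared peaks lost outside the MEF list against 38.4% inside it.

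H3K4me3 loss differed with both lists. It affected 19.1% of the 16547 day 4 peaks found in MEF and iPS cells, 73.3% of the 1165 found in iPS cells but not MEF, 93.5% of the 972 found in MEF but not iPS cells, and 97.5% of the 1994 found in neither. The share lost went from 84.3% (83.1 to 85.3) in the lowest quintile of scores to 0.967% (0.711 to 1.31) in the highest, while for H3K27ac it went from 75.8% (74.8 to 76.7) to 13.4% (12.6 to 14.1). Among peaks found in MEF and iPS cells, 65.8% (63.2 to 68.3) of the lowest quintile were lost and 0.848% (0.610 to 1.18) of the highest.

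**Figure D2:**
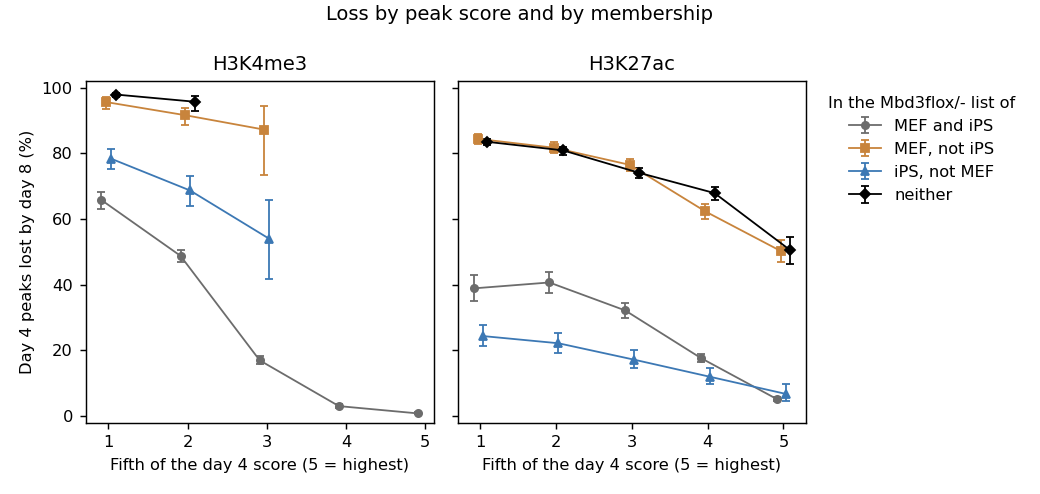
The percentage of day 4 peaks lost by day 8 (y axis, bars are 95% Wilson intervals) is plotted against the quintile of the day 4 score (x axis) for peaks divided by presence in the Mbd3flox/- MEF and iPS lists; points with fewer than 20 peaks are left out. For H3K27ac the pair of lines without an iPS peak, from about 84% down to 50%, runs above the pair with one at every quintile.

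New peaks overlapped the lists of pluripotent cells more often than the MEF list. Of the new H3K4me3 peaks, 76.8% (74.6 to 78.9) were in the Mbd3flox/- iPS list, 75.5% (73.3 to 77.6) in the +/+ iPS list, 74.0% (71.7 to 76.2) in the -/- ES list and 88.6% (86.9 to 90.1) in at least 1 of them. Of the new H3K27ac peaks, 55.0% (53.8 to 56.2) were in the Mbd3flox/- iPS list, 72.1% (70.9 to 73.2) in the +/+ iPS list, 71.7% (70.6 to 72.8) in the ES list and 84.0% (83.1 to 84.9) in at least 1. Fibroblast peaks that had been absent on day 4 were the smaller share: 16.0% (14.2 to 17.9) of new H3K4me3 peaks and 19.5% (18.5 to 20.5) of new H3K27ac peaks overlapped the Mbd3flox/- MEF list. The H3K4me3 share was 32.1% with lists of equal length and 2.77% against the +/+ MEF list, and the H3K27ac share was 10.1% with peaks at a fixed width. At the fixed width 45.4% of new H3K4me3 and 29.8% of new H3K27ac peaks were in the Mbd3flox/- iPS list, and 43.8% of new H3K27ac peaks were when 50% of the peak had to be covered. Kept day 8 peaks were more often iPS peaks than new ones, at 99.2% (99.1 to 99.4) for H3K4me3 and 74.7% (74.0 to 75.4) for H3K27ac. The class found in iPS cells and not in MEF held 42.3% (41.1 to 43.5) of new and 11.6% (11.1 to 12.2) of kept day 8 H3K27ac peaks, and 63.1% (60.6 to 65.5) of new and 2.11% (1.89 to 2.36) of kept H3K4me3 peaks. New H3K27ac in none of the MEF, iPS and ES lists numbered 868 peaks, 13.9% (13.1 to 14.8).

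Oct4 peaks were less frequent on day 8 than on day 4 at lost H3K27ac peaks and more frequent at new ones. At lost H3K27ac peaks, 42.5% (41.8 to 43.1) overlapped an Oct4 peak on day 4 and 12.1% (11.7 to 12.6) on day 8. At kept peaks the shares were 37.2% (36.5 to 37.8) and 33.7% (33.0 to 34.4). At new peaks they were 13.1% (12.2 to 13.9) on day 4 and 45.9% (44.7 to 47.1) on day 8, and 34.8% (33.6 to 36.0) of new peaks had Oct4 on day 8 alone. Where Oct4 was present on day 4, it was still present on day 8 at 24.2% (23.3 to 25.1) of lost and 66.7% (65.6 to 67.8) of kept H3K27ac peaks. Seen from the factor, 78.3% (77.4 to 79.1) of the day 4 Oct4 peaks on lost H3K27ac were gone on day 8, against 41.2% (40.1 to 42.2) of those on kept H3K27ac and 71.5% (71.0 to 71.9) of the whole Oct4 list. That list held 33755 peaks on day 4 and 19805 on day 8, and the part of list length in these shares was not tested. Of the 8608 lost H3K27ac peaks in no MEF, iPS or ES list, 54.5% had Oct4 on day 4 and 13.8% on day 8. Of the 1158 kept day 4 H3K27ac peaks in none of these lists, 48.0% had it on day 4 and 39.2% on day 8. The size of these shares rests on the overlap rule. With 50% of the H3K27ac peak covered, Oct4 lay on 7.66% of lost peaks on day 4 and 1.70% of new peaks on day 8, and with peaks at a fixed width on 29.0% and 22.6%. The rise at new peaks from day 4 to day 8, 32.9 points, was 1.63 points with 50% cover and 11.5 points at the fixed width.

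Mi2B, the NuRD remodeller, was also less frequent on day 8 than on day 4 at lost H3K27ac peaks and more frequent at new ones, while at kept peaks its share was higher on day 8 and that of Oct4 lower. It lay on 19.0% (18.5 to 19.6) of lost peaks on day 4 and on 6.02% (5.70 to 6.35) on day 8, and on 29.3% (28.6 to 29.9) and 33.3% (32.7 to 34.0) of kept ones. At new peaks it went from 5.04% (4.52 to 5.61) to 28.5% (27.4 to 29.6). This rise of 23.4 points was 2.30 points with 50% cover, 9.19 at the fixed width and 14.6 at a score of at least 100. Against all kept peaks the factors differed in sign: lost peaks had 5.30 points more Oct4 on day 4 and new peaks 7.27 points more on day 8, while for Mi2B the differences were -10.2 and -9.56 points (-10.9 to -8.18). These signs did not hold in every class of MEF and iPS presence. Day 8 Oct4 lay on 45.1% of new and 31.4% of kept day 8 peaks found in both lists. The shares were 54.8% and 68.5% in iPS alone, 28.4% and 31.2% in MEF alone, and 39.4% and 52.6% in neither. Day 4 Oct4 lay on 24.1% of lost and 31.7% of kept day 4 peaks found in both lists. These were 43.9% and 49.6% in iPS alone, 33.0% and 32.8% in MEF alone, and 51.4% and 47.7% in neither. The Mi2B lists were of similar length, 14384 peaks on day 4 and 13125 on day 8, with a median width of 683 and 1013 bp, and the part of this width in the shares was not tested. On day 8, Oct4 and Mi2B peaks both overlapped 22.3% (21.3 to 23.4) of new H3K27ac peaks, against 2.39% (2.04 to 2.80) with both on day 4. Differences in factor cover between classes depend on how overlap is counted: the new minus kept difference in day 8 Oct4, 7.27 points (5.81 to 8.73), was -0.340 (-0.707 to 0.0257) when 50% of the H3K27ac peak had to be covered. Under the same rule the Mi2B difference of lost minus kept on day 4 turned from -10.2 to 0.834 points. By class of MEF and iPS presence, day 4 Mi2B lay on 37.7% of lost and 34.2% of kept H3K27ac peaks found in both lists. In each other class it lay on a smaller share of lost than of kept peaks, with 14.5% and 19.5% in neither list.

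At H3K4me3, Oct4 lay on 22.5% (21.5 to 23.5) of lost and 23.8% (23.1 to 24.5) of kept day 4 peaks, and the difference of -1.33 points changed sign with the overlap rule, the score minimum and the fixed width. Mi2B lay on 22.4% (21.4 to 23.4) of lost and 34.9% (34.1 to 35.7) of kept peaks on day 4, a difference of -12.5 points (-13.7 to -11.2) that was -2.23 at a score of at least 100 and turned to 3.19 with 50% cover. New H3K4me3 peaks had Oct4 at 8.50% (7.19 to 10.0) on day 4 and 21.6% (19.6 to 23.8) on day 8, and Mi2B at 5.87% (4.78 to 7.19) and 24.4% (22.2 to 26.6). With peaks at a fixed width these differences between the days were -3.30 points for Oct4 and -1.83 points for Mi2B, so their direction rests on the peak edges.

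**Figure D3:**
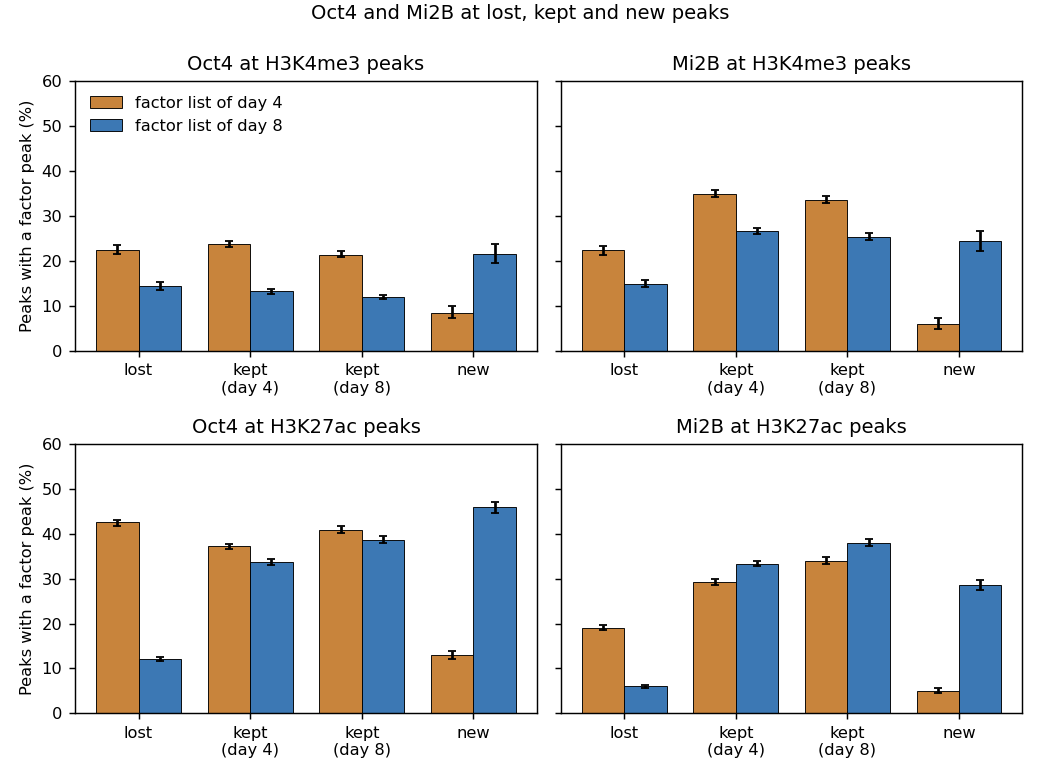
Bars give the percentage of lost, kept and new peaks that overlap an Oct4 (left) or Mi2B (right) peak of day 4 or day 8 in Mbd3flox/- cells, with 95% Wilson intervals, for H3K4me3 (top) and H3K27ac (bottom). Lost H3K27ac peaks go from 42.5% to 12.1% with Oct4 and new ones from 13.1% to 45.9%.

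Counted over all peaks, H3K27ac turned over more often away from H3K4me3. Day 4 H3K27ac peaks that did not overlap a day 4 H3K4me3 peak were lost in 64.1% (63.5 to 64.7) of cases, and those that did in 31.4% (30.6 to 32.1). By class of MEF and iPS presence the gap was small or turned. Day 4 H3K4me3 lay on 75.1% of lost and 79.6% of kept day 4 H3K27ac peaks found in both lists. These shares were 32.6% and 37.3% in MEF alone, 20.0% and 11.2% in iPS alone, and 5.29% and 5.77% in neither. Day 8 H3K27ac peaks off H3K4me3 were new in 46.2% (45.3 to 47.0) of cases, and those on it in 5.79% (5.32 to 6.30). Day 8 H3K4me3 lay on 16.2% of new and 79.1% of kept day 8 H3K27ac peaks found in MEF and iPS cells. The shares were 5.21% and 33.2% in MEF alone, 11.3% and 12.1% in iPS alone, and 2.64% and 3.07% in neither. Neither contrast of H3K27ac was compared at a given score. H3K27ac with no H3K4me3 at any Mbd3flox/- stage is the usual picture of an enhancer. It made up 76.0% (75.4 to 76.6) of lost and 43.1% (42.4 to 43.8) of kept day 4 peaks. It made up 78.8% (77.7 to 79.8) of new and 35.2% (34.5 to 36.0) of kept day 8 peaks. Loss of H3K4me3 peaks also differed with H3K27ac at the same site, which was not compared at a given score. H3K4me3 peaks with H3K27ac on both days were lost in 12.8% (12.2 to 13.5) of cases, those with H3K27ac on day 4 alone in 39.6% (38.2 to 41.1), those with it on day 8 alone in 49.6% (45.1 to 54.0), and those without it in 63.8% (62.6 to 65.1). Of the new H3K4me3 peaks, 63.4% (60.9 to 65.8) had H3K27ac on day 8 and 22.6% (20.5 to 24.8) had it on day 4. Kept day 8 H3K4me3 peaks had it in 65.9% (65.1 to 66.7) of cases on day 8 and in 83.8% (83.2 to 84.4) on day 4.

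For both marks, day 4 peaks on Polycomb sites of MEF or iPS cells were lost more often than the others. Day 4 H3K4me3 peaks on MEF H3K27me3 were lost in 47.8% (46.2 to 49.5) of cases and the others in 30.1% (29.4 to 30.8). This difference was not the same at every score: in the lowest quintile 81.8% and 85.0% were lost, in the third quintile 28.8% and 15.8%, and in the highest 6.10% (3.60 to 10.2) and 0.688% (0.474 to 1.000). Of the 1222 lost H3K4me3 peaks that carried H3K27me3 in Mbd3flox/- iPS cells, 86.0% (83.9 to 87.8) were in the iPS H3K4me3 list, so both marks were present there in the pluripotent cells. Day 4 H3K4me3 peaks on iPS H3K27me3 were lost in 42.0% (40.3 to 43.8) of cases, against 31.8% (31.1 to 32.4) of the rest. H3K27ac on sites with iPS H3K27me3 was seldom kept: 80.8% (78.3 to 83.1) of 1012 such peaks were lost, against 51.6% (51.1 to 52.1) of the rest. On MEF H3K27me3, 62.1% (59.7 to 64.5) of day 4 H3K27ac peaks were lost, against 51.9% (51.4 to 52.4) of the rest. New H3K27ac overlapped MEF H3K27me3 at 7.96% of peaks and iPS H3K27me3 at 0.802%, against 4.94% and 1.29% of kept day 8 peaks. The H3K27me3 list of Mbd3flox/- cells on day 4 held 567 peaks, against 35023 in MEF and 13100 in iPS cells, so H3K27me3 was read in MEF and iPS cells and not on the days compared.

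When the 4 stages of the Mbd3flox/- series were merged, they gave 31823 H3K4me3 sites and 80654 H3K27ac sites. For H3K4me3 the most common history was a peak at every stage, with 12554 sites. Among sites with a peak on day 4 and none on day 8, the most common history was a peak at all stages but day 8, with 2607 of 6110 sites, and 96.8% of these 2607 were also in the ES list. The median H3K4me3 score was 1297 in the MEF list, 491 in the day 4 list, 158 in the day 8 list and 595 in the iPS list, given as a description since scores are not comparable between lists, and the part of list strength in this gap was not tested. For H3K27ac, 11277 sites had a peak on day 4 alone, 5216 in fibroblasts and day 4 cells, and 2535 at the later pair of stages, day 8 and iPS. Sites of that last kind were in the ES list in 92.9% of cases, the 2383 sites of day 8 alone in 43.3% and the sites of day 4 alone in 12.0%.

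**Figure D4:**
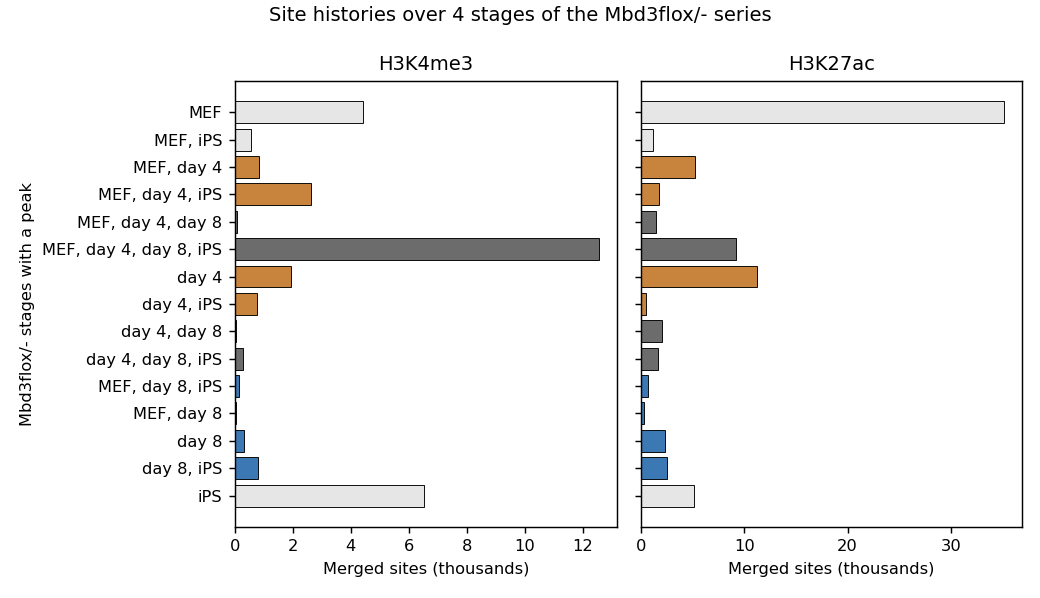
Bars give the number of merged Mbd3flox/- sites (axis in units of 1000) by the stages at which a peak was present; orange marks sites with day 4 but not day 8, blue day 8 but not day 4, dark grey both and light grey neither. The day 4 only bar is the longest orange bar for H3K27ac (11277 sites), while for H3K4me3 it is the bar of sites missing at day 8 alone (2607).

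The regions named here are the highest-scoring of each class that did not overlap an Oct4 peak of MEF. The best-scoring new H3K27ac peak lay at chr12:87841080-87856523 (mm9), 15444 bp wide with a score of 3214.67. It had Oct4 and Mi2B on day 8 and H3K27ac in Mbd3flox/- iPS, +/+ day 8, +/+ iPS and ES cells, and the nearest day 4 H3K27ac peak was 210126 bp away. On the same chromosome, 24.5 kb from it, the new H3K4me3 peak with the second-highest score lay at chr12:87810215-87816552 (score 1017.95), which also had Oct4 and Mi2B on day 8. The next 4 new H3K27ac peaks lay at chr10:70297973-70312566, chr3:34649830-34666762, chr14:41697926-41712251 and chr3:75448902-75461859. All 5 overlapped Oct4 and Mi2B on day 8 and H3K27ac in Mbd3flox/- iPS, +/+ iPS and ES cells, 4 had a +/+ day 8 peak, none had a +/+ day 4 peak, and 1, on chromosome 10, was a MEF peak. Oct4 was present on day 4 at 4 of the 5 and Mi2B at 1, which was chr3:34649830-34666762. New H3K27ac peaks as a whole had a median width of 2833 bp. Of them, 22.3% had both factors on day 8, 13.1% had Oct4 on day 4 and 27.1% had a +/+ day 8 peak.

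The 5 lost H3K27ac peaks with the highest scores were 7238 to 17246 bp wide, and the 5 new ones 12958 to 16933 bp. Ties in score went to the wider peak, so these widths follow in part from the selection and are not compared. The first lay at chr5:67994735-68001972 with a score of 3233.06, and the next 4, tied at 3100, at chr3:99051578-99068823, chr1:165229058-165246006, chr9:41383803-41397942 and chr15:82028104-82038698. All 5 had Oct4 and Mi2B on day 4, and all 5 had a +/+ H3K27ac peak on day 4 and on day 8. Of the 5, 3 were MEF peaks and 1, on chromosome 9, was an Mbd3flox/- iPS peak, while 4 overlapped H3K27me3 in Mbd3flox/- iPS cells. Lost H3K27ac peaks as a whole had a median width of 1090 bp. Of them, 12.3% had both factors on day 4 and 34.7% a +/+ peak on both days. Mbd3flox/- MEF peaks made up 42.8% of them and Mbd3flox/- iPS peaks 12.3%, and 3.96% overlapped H3K27me3 in Mbd3flox/- iPS cells. The region on chromosome 9 was lost for both marks, since the lost H3K4me3 peak with the highest score was chr9:41387720-41395392 (score 2577.19). The nearest day 8 H3K4me3 peak was 350033 bp from it, and it was present in MEF and iPS cells of both genotypes and in ES cells. The other 4 of the 5 highest lost H3K4me3 peaks were likewise in the MEF, iPS and ES lists, and all 5 had a +/+ peak on day 8. Among all lost H3K4me3 peaks, 46.0% were in the Mbd3flox/- MEF and iPS lists and 10.7% had a +/+ day 8 peak. Of the 5 highest new H3K4me3 peaks, 5 had H3K27ac on day 8 and were iPS peaks of both genotypes, 1 was a MEF peak and 1, that on chromosome 12, had a +/+ H3K4me3 peak on day 8. Among all new H3K4me3 peaks, 63.4% had H3K27ac on day 8, 76.8% were Mbd3flox/- iPS peaks and 2.63% had a +/+ day 8 peak. No gene is named for these regions, since the available gene table has other coordinates. The score 3100 was shared by 476 day 4 and 57 day 8 H3K27ac peaks, so width decided which of these were named and in what order.

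The same interval in the +/+ series ran differently for H3K27ac. In +/+ cells 11.9% (11.5 to 12.3) of day 4 H3K27ac peaks were lost, so the Mbd3flox/- share was 40.5 points higher (39.8 to 41.1). The +/+ list grew from 28173 to 39463 peaks while the Mbd3flox/- list shrank, and with the 4 lists at 1 common number of highest-scoring peaks the difference was 16.1 points (15.3 to 17.0). For H3K4me3 the +/+ loss was 24.7% (24.1 to 25.3), 8.53 points lower (7.64 to 9.42), and the difference was 2.60 points (1.78 to 3.43) with lists of common length. New H3K27ac made up 29.4% in Mbd3flox/- and 32.5% (32.1 to 33.0) in +/+ cells, and new H3K4me3 9.48% and 8.20% (7.76 to 8.67). The sign of both of these differences turned with the setting, to 24.8 points for H3K27ac and -4.17 points for H3K4me3 with lists of common length.

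The lists that new peaks overlapped differed between the genotypes, which was not compared under the alternative settings. The part of list length and peak width in this was not tested. In +/+ cells 55.0% (54.2 to 55.9) of new H3K27ac peaks were peaks of their own MEF and 41.5% (40.6 to 42.3) of their own iPS cells, against 19.5% and 55.0% in Mbd3flox/- cells, differences of -35.6 points (-36.8 to -34.2) and 13.5 points (12.0 to 15.0). In the ES list, a reference common to both, stood 71.7% of Mbd3flox/- and 39.7% (38.8 to 40.5) of +/+ new H3K27ac peaks. At the sites themselves, 34.7% (34.0 to 35.3) of the H3K27ac peaks lost in Mbd3flox/- cells had a +/+ peak on both days and 50.0% (49.3 to 50.7) on neither. Of the kept day 4 H3K27ac peaks, 71.5% had one on both days and 15.5% on neither. At the new H3K27ac peaks 72.0% (70.8 to 73.1) had a +/+ peak on neither day and 17.9% (16.9 to 18.8) on day 8 alone. For kept day 8 H3K27ac peaks these shares were 12.3% and 10.1%. At the new H3K4me3 peaks 96.0% (94.9 to 96.9) had a +/+ peak on neither day, against 10.5% of kept day 8 H3K4me3 peaks.

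The order of the steps of the Mbd3flox/- series by loss depended on list length for both marks. Loss of H3K4me3 was 24.2% (23.6 to 24.7) from MEF to day 4, 33.2% from day 4 to day 8 and 2.89% (2.63 to 3.16) from day 8 to iPS cells, and new peaks were 15.3%, 9.48% and 43.4% of the later list. With lists of equal length the losses were 21.5%, 17.3% and 8.09%. Loss of H3K27ac was 66.9% (66.5 to 67.3), 52.4% and 31.1% (30.5 to 31.7), and new peaks were 45.1%, 29.4% and 32.9%. With lists of equal length the H3K27ac losses were 58.1%, 35.0% and 39.2%, and the new shares 50.6%, 41.9% and 25.4%. Neighbouring steps share a list, so they are given side by side and not as independent values.

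**Figure D5:**
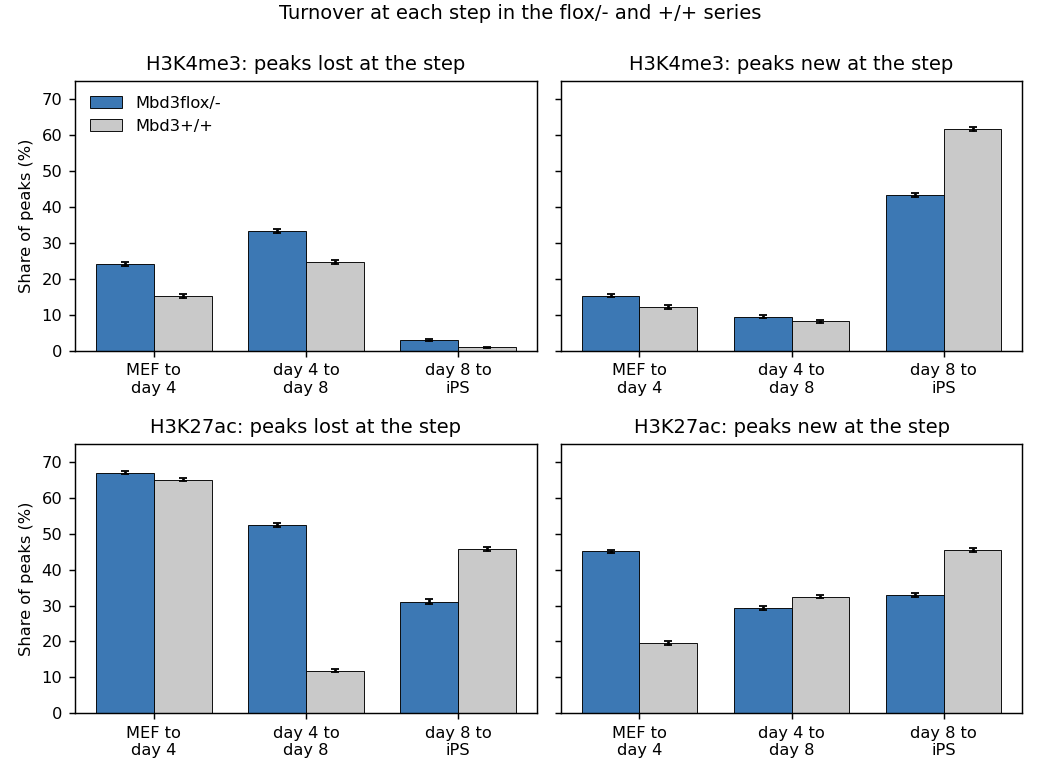
Bars give the percentage of peaks of the earlier list that were lost (left) and of the later list that were new (right) at each step of the Mbd3flox/- (blue) and Mbd3+/+ (grey) series, with 95% Wilson intervals. The H3K27ac loss from day 4 to day 8 is 52.4% in Mbd3flox/- and 11.9% in +/+ cells.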

How the data were processed

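ChIP-seq peak lists of 43 libraries were used, and the 9 input libraries were not analysed here. Per the submitters' processing notes, reads were handled with CASAVA 1.8.2, Bowtie 0.12.5 and MACS 1.4.1 on mm9; settings are not given in the sources used here. Each peak has a start, an end and a score deposited by the authors, one list per library. How many peaks a library yields, and how wide, depends on its depth and enrichment, both unknown here, so a missing peak means not detected.

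Overlaps of at least 1 bp were counted with Python 3.11.15, numpy 2.4.6 and pandas 2.3.3, and figures drawn with matplotlib 3.10.9. The 4 counts of kept peaks equalled those of bedtools 2.31.1. Score quintiles divide a day 4 list into 5 equal parts. Sites of several stages are merged overlapping peaks. As named regions, the 5 peaks of highest score were taken per mark and class on the numbered chromosomes or X, ties going to the wider; peaks on an Oct4 peak of either MEF list were left out (13 lost and 6 new H3K27ac peaks, 31 and 1 for H3K4me3). Kept regions were named by the same rule and are not described. The classes, lists and regions were chosen with earlier results of these data known. Titles gave each sample's group (genotype, stage, antibody).

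Alternatives were a score minimum of 100, cover of 50% of the peak asked about, day 4 and day 8 lists of equal length, peaks of 250 bp on either side of the midpoint, autosomes alone, peaks under 1 kb apart merged, and other MEF, iPS or ES reference lists. Lists of one length in both genotypes were added after seeing the data. Counts at promoters of listed genes, with a wider promoter window, and marker gene lists were not run, because the gene table is of another build (GRCm38.p6).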

Additional observations from a re-analysis of the deposited data

Results flagged for a closer look

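The number of H3K27ac peaks moved in opposite directions in the 2 genotypes. The difference of day 8 minus day 4 was -18262 peaks in Mbd3flox/- cells and 11290 peaks in Mbd3+/+ cells. With 1 library on each side, the difference between the genotypes was not tested. The shorter list of each genotype had the wider peaks: the median width was 1420 bp on day 4 and 3032 bp on day 8 in Mbd3flox/- cells, and 2590 and 1909 bp in +/+ cells. In covered sequence H3K27ac was higher on day 8 in both genotypes, with 71.8 and 91.0 Mb in Mbd3flox/- and 91.8 and 97.1 Mb in +/+ cells. The part of peak width in the peak numbers was not tested.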

How the results depend on the processing

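Of 170 alternative values of differences, 146 kept direction and side of 0, 2 no longer excluded 0, 1 newly did and 21 turned. Of 194 alternative shares, 142 left the counting interval of the reported one. The cause of these changes was not tested.

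H3K4me3 loss was 38.8% at a score minimum of 100, 38.3% with 50% cover, 17.3% with lists of equal length, 42.1% at fixed width and 31.5% with gaps merged, and new H3K4me3 4.17%, 10.6%, 13.6%, 23.4% and 8.78%. H3K27ac loss was 53.9%, 53.4%, 35.0% and 75.1% in the first 4 of these, and new H3K27ac 28.5%, 48.9%, 41.9%, 53.8% and, merged, 26.8%. New H3K4me3 in iPS cells was 89.8% at the score minimum, 80.6% with equal length, 45.4% at fixed width and 74.0% against ES cells. New H3K27ac in iPS cells was 43.8% with 50% cover, 29.8% at fixed width, 56.6% merged, 72.1% against +/+ iPS and 71.7% against ES cells.

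Mbd3flox/- minus +/+ new H3K27ac turned to 14.5 points with 50% cover, 23.3 with equal length, 3.91 at fixed width and 24.8 with one length in both genotypes. For new H3K4me3 it turned to -1.99 at the score minimum, -1.49 with 50% cover, -3.00 with equal length and -4.17 with one length in both. With 50% cover, new minus kept Oct4 on day 8 was -0.340 and lost minus kept Mi2B on day 4 0.834 points for H3K27ac, and lost minus kept Mi2B on day 4 3.19 for H3K4me3. Lost minus kept H3K4me3 with day 4 Oct4 was 1.34 at the score minimum, 6.48 with 50% cover and 3.74 at fixed width. New minus kept H3K4me3 with MEF H3K27me3 was 6.42, 2.09, 7.01 and 0.979 points at the score minimum, 50% cover, equal length and fixed width, and with day 8 Mi2B 4.77 at the score minimum. At fixed width, new H3K4me3 differed between the days by -3.30 points for Oct4 and -1.83 for Mi2B.

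No paired analysis was possible because each genotype, stage and antibody has 1 library and the results come from overlaps, not from a test. The promoter counts and their wider window were not run. Without replicates or read depth, a lost or new peak cannot be told apart from one missed in a weaker library.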

Other observations

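Mbd3 itself was profiled in +/+ iPS cells, and its sites there were set against the Mbd3flox/- peaks. Of the new H3K27ac peaks, 20.1% (19.1 to 21.1) overlapped one of the 8657 Mbd3 peaks of +/+ iPS cells, against 17.7% (17.1 to 18.3) of kept day 8 peaks, a difference of 2.43 points (1.27 to 3.60). Of the lost H3K27ac peaks 3.33% (3.10 to 3.58) did, against 14.3% (13.8 to 14.8) of kept day 4 peaks. For H3K4me3 the shares were 10.4% (8.94 to 12.0) of new, 6.74% (6.34 to 7.17) of kept day 8, 7.59% (6.99 to 8.24) of lost and 7.17% (6.75 to 7.61) of kept day 4 peaks. The Mbd3 and Mbd3flox/- lists come from cells of different genotype and stage.

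The X chromosome had the highest share of lost H3K4me3 peaks, 41.0% (37.3 to 44.9) of 646, against 29.3% to 36.3% on the 19 autosomes, and the lowest share of new ones, 5.97% (4.04 to 8.73) of 402, against 7.96% to 12.6%. For H3K27ac it stood within the autosomal range, with 55.8% (52.3 to 59.3) lost and 30.6% (26.2 to 35.3) new. The X chromosome was singled out after the values were seen.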
